A study of Mus musculus with 17 samples.

Results

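The genes examined here encode the enzymes that build cholesterol and fatty acids and the proteins that sense and move sterols. They are 31 of the 56305 gene identifiers in the count tables, and they were chosen by name from a list of the pathway rather than by their values. The list holds 18 sterol enzymes, 5 genes of sterol sensing and transport and 8 fatty acid enzymes. Cells make cholesterol from acetyl-CoA by way of mevalonate, isoprenoid diphosphates, squalene and lanosterol. Fatty acids come from the same acetyl-CoA, which is carboxylated to malonyl-CoA, joined into palmitate and then elongated and desaturated. Both branches are driven by the transcription factors SREBP1 and SREBP2, which INSIG proteins hold with SCAP in the endoplasmic reticulum while sterols are plentiful, and which are escorted to the Golgi and cleaved when sterols run low. SREBPs act on promoters together with NF-Y, which binds CCAAT boxes, and SP1, which binds GC boxes. Dividing blood cells need both products for new membrane, and leukaemic cells are known to take up cholesterol as well as make it.

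Total RNA from mouse bone marrow was sequenced in 9 libraries labelled Mt1ko and 8 labelled control. All came from acute myeloid leukaemia on the C57BL/6 background with the genotype Dnmt3aR878H/+;Npm1cA/+, so the controls carried both leukaemia alleles too, and in the Mt1ko libraries Mt1 had in addition been targeted with CRISPR-Cas9. Its product, metallothionein 1, holds zinc and copper ions through its many cysteines. The series asked how transcription differs after that knock-down. Every library is labelled a technical replicate, and the authors also deposited 6 sums of libraries, which served as the samples: Mt1ko 4-6, Mt1ko 10-12 and Mt1ko 16-18 (named for the libraries they hold), and control 1-3, control 7-9 and control 14-15. Nothing in the labels says that these sums came from separate animals, cultures or edited clones, so p-values reflect nothing more than how far these 6 samples spread, and that spread may be technical.

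The targeted gene went against the label of 1 library. Mt1 was at 49.3 to 95.8 CPM (counts scaled to library size, with TMM factors) in 8 libraries labelled Mt1ko, against 332.6 to 449.4 CPM in the 8 control libraries, but at 316.9 CPM in the library labelled Mt1ko 6. Across the summed samples Mt1 averaged 107 ± 56.8 CPM in Mt1ko and 384 ± 49.1 CPM in control (SD, n = 3 each), a log2 fold change of -1.85 (SE 0.34). In edgeR's quasi-likelihood test the unadjusted p was 0.000751, the smallest of all tested genes, and the adjusted p was 1.00. With library 6 left out of its sum the adjusted p was 0.0102 in the same test, and the log2 fold change was -2.30. Library 6 was singled out by its Mt1 level, so leaving it out had to lower Mt1 in Mt1ko, and that p is no separate support. With all libraries in the sums, the edgeR test did not call the targeted gene, so not being called does not show that a gene was unchanged. Mt1ko 10-12 stood apart from the other samples. Mitochondrial ribosomal RNA took 21.9% to 30.2% of counts in its 3 libraries, against 4.58% to 11.2% in the other 14 libraries, and 11548 to 13174 genes had a count there, against 14823 to 17739. Library totals were 27124722 to 38645072 counts and the 6 sums held 64247249 to 106407001 counts. Monocyte and macrophage markers, which the labelled marrow leukaemia should hold, were at 10 CPM or more in control for 10 of 10 listed genes. Their sum was 8254 to 9007 CPM in Mt1ko and 7234 to 10230 CPM in control. The listed markers of B cells (6 of 6), of T and NK cells (7 of 7) and of adipocytes or stroma (8 of 8) were under 1 CPM in control. Megakaryocyte and platelet markers were apart between the groups, with sums of 198.3 to 287.7 CPM in Mt1ko and 103.8 to 182.9 CPM in control, where 3 of 7 listed genes were at 10 CPM or more. Neutrophil markers summed to 44.3 to 216.6 CPM in Mt1ko and 54.7 to 227.4 CPM in control, with Camp, Ltf, Ngp and S100a9 under 1 CPM in control. Erythroid markers summed to 4.49 to 7.94 CPM in Mt1ko and 1.42 to 27.6 CPM in control. The part of these markers in the results below was not tested.

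RefSeq promoters of GRCm38.p6, each 250 bases before to 50 bases after a start site, were found for 24 of the 31 members, in 30 windows of 300 bases. The 3 shown belong to sterol enzymes whose level in Mt1ko 10-12 was the highest of the 6 samples. Capitals mark the letters TCACNCCAC, a form of the sterol regulatory element (SRE), and the CCAAT box, each on either strand; a CCAAT box on the other strand reads ATTGG. Hmgcs1 encodes HMG-CoA synthase, and its window is chr13:119690101-119690400 on the plus strand. The window of Idi1, the isomerase that interconverts the building blocks of isoprenoids, is chr13:8885356-8885655 on the plus strand. The window of Lss, the cyclase that folds oxidosqualene into lanosterol, is chr10:76531355-76531654 on the plus strand.
Hmgcs1: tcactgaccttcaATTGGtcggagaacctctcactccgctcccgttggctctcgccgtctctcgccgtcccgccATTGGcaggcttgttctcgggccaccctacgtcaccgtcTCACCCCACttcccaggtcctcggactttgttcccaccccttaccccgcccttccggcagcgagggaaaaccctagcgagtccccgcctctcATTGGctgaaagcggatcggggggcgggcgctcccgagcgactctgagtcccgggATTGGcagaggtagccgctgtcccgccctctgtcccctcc
Idi1: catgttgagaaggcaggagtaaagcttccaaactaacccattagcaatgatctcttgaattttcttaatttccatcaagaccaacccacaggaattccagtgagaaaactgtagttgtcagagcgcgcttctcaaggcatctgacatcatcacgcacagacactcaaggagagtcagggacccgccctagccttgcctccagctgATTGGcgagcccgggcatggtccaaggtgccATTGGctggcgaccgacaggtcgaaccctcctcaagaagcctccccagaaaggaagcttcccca
Lss: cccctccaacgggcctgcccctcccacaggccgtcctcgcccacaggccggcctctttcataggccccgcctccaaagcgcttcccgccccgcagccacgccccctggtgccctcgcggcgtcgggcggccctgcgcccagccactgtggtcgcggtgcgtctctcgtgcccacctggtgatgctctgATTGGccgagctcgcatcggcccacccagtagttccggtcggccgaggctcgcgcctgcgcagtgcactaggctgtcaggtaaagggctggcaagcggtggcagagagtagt

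The Hmgcs1 window held 1 SRE match, TCACCCCAC, which starts 137 bases before the start site, and 4 CCAAT boxes. Idi1 held 2 CCAAT boxes, 45 and 14 bases before the start site, and Lss held 1, at 62 bases. Among the windows of sterol enzymes, 14 of 18 (77.8%) held a CCAAT box, against 37.4% of all 32851 RefSeq promoter windows. By gene this was 14 of 15 sterol enzymes, against 41.1% of 27025 genes. Of the fatty acid enzymes, 2 of 5 windows held one. The GC box GGGCGG, read on both strands, was in 23 of 30 member windows (76.7%), against 35.7% of all windows. The palindrome CACGTG, the E-box that SREBP1 can also bind, was in 6 of 30, against 7.15% of all. Among the 24 members with a window, Hmgcs1 alone held the SRE letters, which 1.24% of all windows hold. No window was found for Fads1, Fdft1, Fdps, Scd1, Scd2, Sqle and Stard4, so their promoters were not read. A match is a stretch of letters, and binding was not measured.

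No member of the pathway changed past the threshold between Mt1ko and control. Of the 31 members, 28 passed the filter on low counts and were tested, and 0 had an adjusted p under 0.05 (edgeR quasi-likelihood test), against 0% of the 16666 genes tested. No member reached an unadjusted p under 0.05 in that test. Of all tested genes 0.522% did so with a higher level in Mt1ko and 0.504% with a lower level. The Mt1ko and control samples overlapped for every member. The groups were apart with Mt1ko higher for 2.74% of tested genes and with Mt1ko lower for 4.36%. With shares this small, counts of 0 among 28 members do not set them apart from other genes. DESeq2 called 1 gene, Mt1, and limma-voom called 0; neither called a member. Among the 28 tested members, 16 were fitted higher in Mt1ko and 12 lower, with a median log2 fold change of 0.01, and the median over all tested genes was -0.01. The 95% interval lay within 1 log2 unit of 0 for 14 of the 28 members, and for 45.3% of all tested genes, so for the other members these samples do not bound a change of that size. In bulk RNA, fewer cells of a type and less RNA per cell cannot be told apart.

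**Figure D1:**
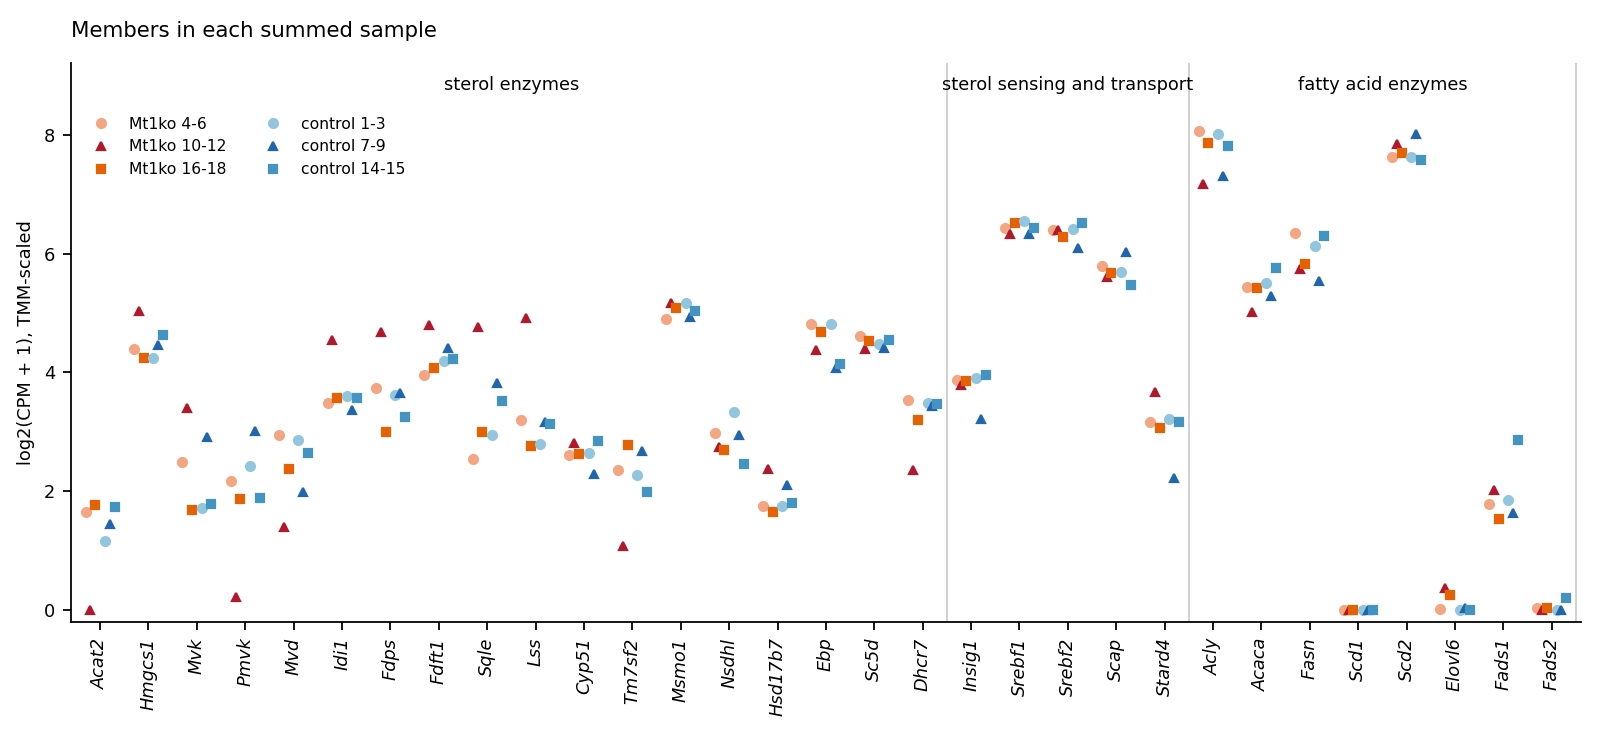
Level of each of the 31 members in the 6 summed samples, as log2(CPM + 1) on the TMM scale; Mt1ko samples are in warm colours and control samples in blue, and each point is 1 summed sample. Mt1ko and control points overlap for every member, and Mt1ko 10-12 (dark red triangles) is the highest point for 9 of the 18 sterol enzymes and the lowest for 6.

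The early sterol enzymes carry acetyl-CoA to mevalonate and on to the isoprenoids. Hmgcs1 (chr13:119690379-119708260, GRCm38), which condenses acetyl-CoA with acetoacetyl-CoA, had 19.9, 31.6 and 17.9 CPM in Mt1ko 4-6, 10-12 and 16-18, against 18.0, 20.9 and 23.7 CPM in control 1-3, 7-9 and 14-15. The Mt1ko samples held both the highest and the lowest value. The means were 23.1 ± 7.37 CPM in Mt1ko and 20.9 ± 2.85 CPM in control (SD, n = 3 each), with a log2 fold change of 0.15 (SE 0.25, 95% interval -0.44 to 0.74). Pmvk, which adds the next phosphate to phosphomevalonate, had 3.49, 0.164 and 2.66 CPM in Mt1ko, against 4.35, 7.08 and 2.70 CPM in control. Mt1ko 10-12 was the lowest of the 6 samples, with 13 counts, and the other two Mt1ko samples overlapped the controls. Pmvk had the lowest fitted value of the members, a log2 fold change of -1.16 (SE 0.96, interval -3.38 to 1.06) and an unadjusted p of 0.261 (edgeR quasi-likelihood test), and -0.61 without Mt1ko 10-12. With the 17 libraries its log2 fold change was -2.10 with the second index as a covariate and -2.39 with the summed sample as a random effect, at unadjusted p of 0.0403 and 0.0264 (adjusted p of 1.00 in both, edgeR and limma). The covariate fit took the libraries, labelled technical replicates, as independent, so its p does not rest on the 6 samples. Libraries 10, 11 and 12 had 0, 13 and 0 counts of Pmvk.

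Idi1 and Fdps act on the isoprenoid units. Idi1 (chr13:8885501-8892451) had 10.2, 22.5 and 10.9 CPM in Mt1ko, against 11.1, 9.38 and 10.9 CPM in control. Only Mt1ko 10-12 lay above the other samples, which spanned 9.38 to 11.1 CPM. The means were 14.5 ± 6.89 CPM in Mt1ko and 10.5 ± 0.939 CPM in control, with a log2 fold change of 0.47 (SE 0.35, interval -0.33 to 1.28), and 0.02 without Mt1ko 10-12. The excess was in each library of that sample: libraries 10, 11 and 12 had 19.7, 28.2 and 18.4 CPM of Idi1, against 7.54 to 15.3 CPM in the other 14 libraries. Fdps (chr3:89093588-89101959), which joins isoprenoid units into farnesyl diphosphate, had 12.3, 24.6 and 6.99 CPM in Mt1ko, against 11.3, 11.5 and 8.57 CPM in control. Here the 3 libraries of Mt1ko 10-12 did not move together, with 6.87, 58.5 and 0.716 CPM. The log2 fold change of Fdps was 0.48 (SE 0.44, interval -0.54 to 1.503), and -0.12 without that sample.

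Acat2, Mvk and Mvd complete the early steps. Acat2, the thiolase that makes acetoacetyl-CoA, had 0 counts in Mt1ko 10-12, which allows up to 0.0377 CPM, while the other 5 samples lay between 1.24 and 2.39 CPM. Mvk, the mevalonate kinase, had 4.65, 9.51 and 2.23 CPM in Mt1ko, against 2.29, 6.502 and 2.46 CPM in control. Mvd, which decarboxylates mevalonate diphosphate, had 6.76, 1.65 and 4.17 CPM in Mt1ko, against 6.25, 2.99 and 5.27 CPM in control. For all 3 enzymes the difference between samples of 1 group was larger than the difference between the group means.

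The late sterol enzymes turn farnesyl diphosphate into squalene, close the rings and trim lanosterol to cholesterol. Lss (chr10:76531588-76557138) had 8.20, 29.1 and 5.82 CPM in Mt1ko, against 5.93, 7.99 and 7.76 CPM in control. Mt1ko 10-12 stood over 3 times above every other sample, and the other two Mt1ko samples bracketed the controls. Lss had the smallest p of the members, with a log2 fold change of 0.99 (SE 0.58, interval -0.36 to 2.34), an unadjusted p of 0.128 and an adjusted p of 1.00 (edgeR quasi-likelihood test). Without Mt1ko 10-12 its log2 fold change was -0.04. Libraries 10, 11 and 12 had 46.2, 31.6 and 7.79 CPM of Lss, against 2.66 to 11.4 CPM in the other 14 libraries, so the excess was in the first 2 of the 3.

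Msmo1 (chr8:64718139-64733792), the methyl sterol oxidase, had the highest level per kilobase of the longest protein-coding transcript among the sterol enzymes. Per kilobase of all annotated exons Ebp was higher, at 8.62 CPM per kb in control, against 5.22 for Msmo1. It had 28.7, 34.9 and 33.1 CPM in Mt1ko, against 34.9, 29.4 and 31.9 CPM in control. The groups lay on top of each other, with means of 32.2 ± 3.20 CPM in Mt1ko and 32.1 ± 2.73 CPM in control, with a log2 fold change of 0.01 (SE 0.15, interval -0.35 to 0.36). The even sum of Mt1ko 10-12 hid uneven libraries, at 27.7, 17.0 and 65.6 CPM. Sqle, the squalene epoxidase that is a control point of the late pathway, had 4.85, 26.2 and 6.98 CPM in Mt1ko, against 6.70, 13.2 and 10.5 CPM in control. The other two Mt1ko samples were at or near the low end, and the log2 fold change of Sqle was 0.32 (SE 0.62) with all samples and -0.77 without Mt1ko 10-12. Dhcr7, which makes the last reduction in the Kandutsch-Russell branch, had 10.6, 4.13 and 8.20 CPM in Mt1ko, against 10.2, 9.76 and 10.0 CPM in control.

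The other late enzymes were fitted near 0. Log2 fold changes of Fdft1, Cyp51, Hsd17b7, Ebp and Sc5d, which make squalene and reshape the sterol rings, ran between 0.04 and 0.26, and those of Tm7sf2 and Nsdhl were -0.14 and -0.18. Ebp, the sterol isomerase, had 27.2, 19.8 and 24.7 CPM in Mt1ko, against 27.2, 15.8 and 16.7 CPM in control. Over the 18 sterol enzymes, 12 were fitted higher in Mt1ko and 6 lower, with a median log2 fold change of 0.07. Without Mt1ko 10-12 the split was 7 higher and 11 lower, and the median was -0.07. The median was also below 0 with library 6 left out of its sum (-0.01) and in limma-voom (-0.01), so its sign depended on the setting.

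**Figure D2:**
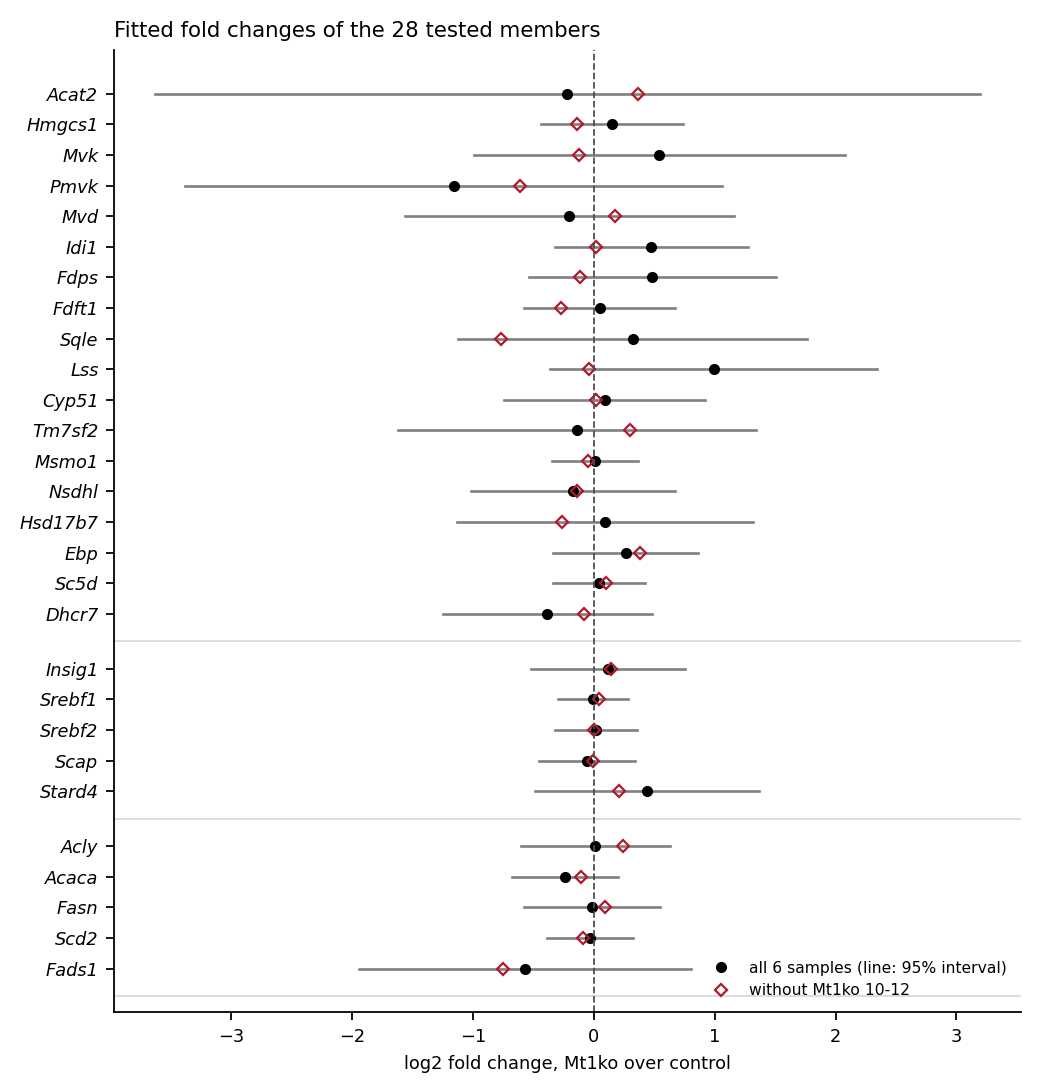
Fitted log2 fold change, Mt1ko over control, of the 28 tested members with all 6 samples (black points, with 95% intervals as lines) and without Mt1ko 10-12 (open red diamonds), in the order sterol enzymes, sterol sensing and transport, and fatty acid enzymes. Every interval crosses 0, and Lss lies at 0.99 with that sample and at -0.04 without it.

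Mt1ko 10-12 stood at either end of the range for most sterol enzymes. It was the highest of the 6 samples for 9 of the 18 and the lowest for 6, against 27.6% and 40.4% of all tested genes. The highest group took in Hmgcs1, Mvk, Idi1, Fdps, Fdft1, Sqle, Lss, Msmo1 and Hsd17b7, and the lowest group Acat2, Pmvk, Mvd, Tm7sf2, Sc5d and Dhcr7. Its 3 libraries differed among themselves for sterol enzymes by a median coefficient of variation of 69.4%, against 16.2% to 36.3% within the other 5 samples, where counting alone would give 4.36% in Mt1ko 10-12. All tested genes had a median of 62.8% there, against 21.1% to 33.3%. Among tested genes in the expression range of the sterol enzymes the median there was 82.1%, so their spread was not larger than that of like genes. A library at 0 was seen for 6 of the 18 sterol enzymes, among them Acat2 with 0 in all 3 libraries. In that range it was seen for 2499 genes, which take in genes with no count there, so they are not a share of the 6886 genes with a count. The range holds at least 7068 genes, the number with a count in Mt1ko 16-18. A library at 0 was therefore common among like genes too. Mast cell and basophil markers summed to 5286 CPM in Mt1ko 10-12, against 166.5 to 830.2 CPM in the other 5 samples, with 7 of the 9 listed genes at 10 CPM or more in control. Their part, and that of the mitochondrial RNA share, in the levels of sterol enzymes was not tested.

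**Figure D3:**
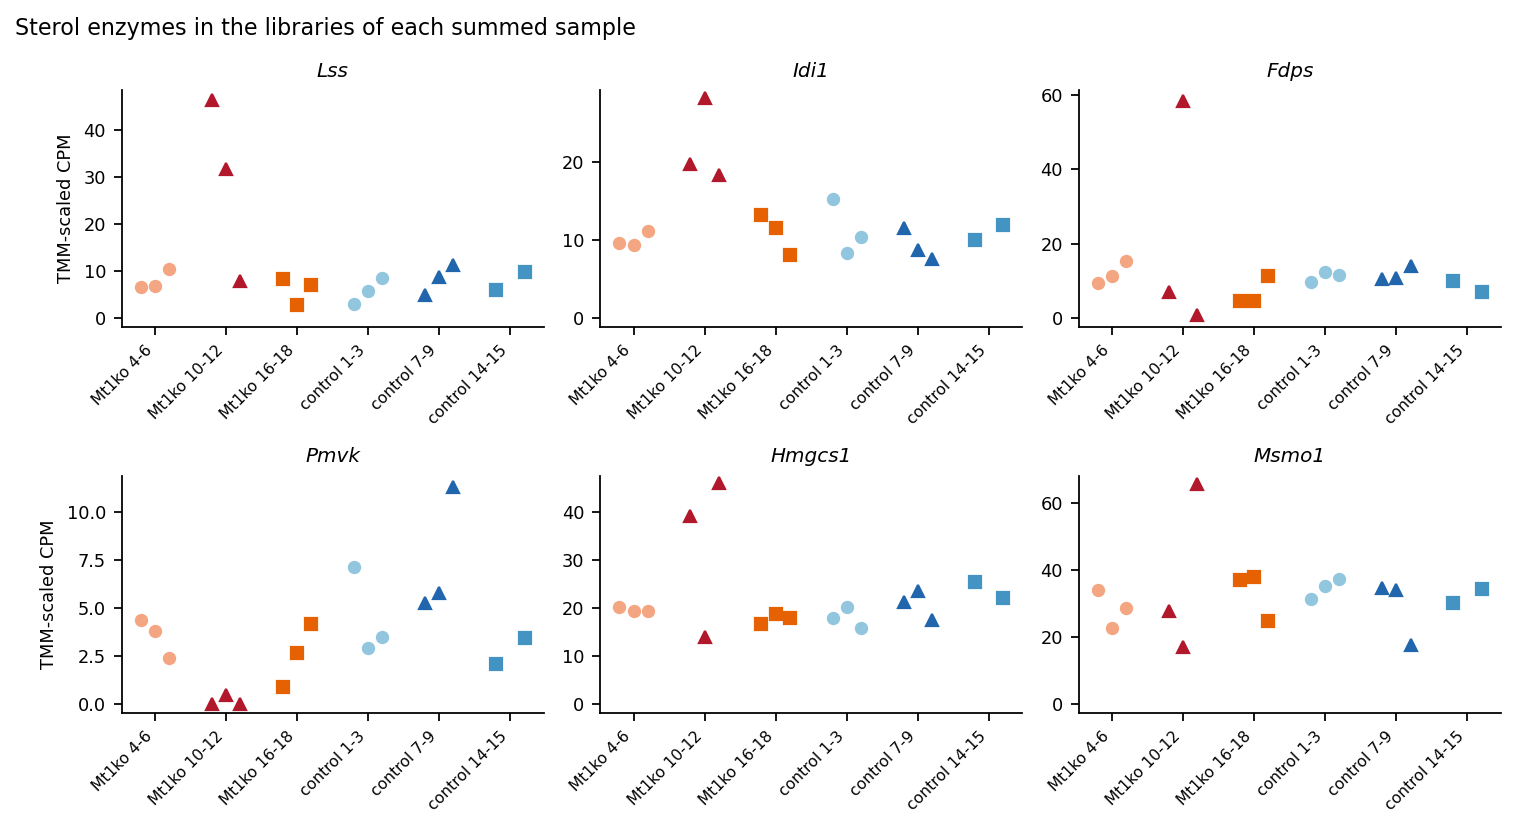
TMM-scaled CPM of 6 sterol enzymes in each of the 17 libraries, grouped by summed sample; each point is 1 library, Mt1ko is in warm colours and control in blue. All 3 libraries of Mt1ko 10-12 are high for Idi1, 2 are high for Lss and 1 is high for Fdps, while Pmvk is at or near 0 in all 3.

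The sensors and regulators of the pathway had narrow intervals, within 1 log2 unit of 0 for 4 of the 5. Srebf1 (chr11:60199089-60222581), which encodes SREBP1, had 85.4, 79.2 and 91.0 CPM in Mt1ko, against 92.7, 79.8 and 85.2 CPM in control. Its groups overlapped throughout, with a log2 fold change of -0.01 (SE 0.13, interval -0.30 to 0.28). Srebf2 (chr15:82147181-82205379), which encodes SREBP2, the main driver of the sterol branch, had 83.5, 83.2 and 77.0 CPM in Mt1ko, against 83.8, 67.0 and 90.3 CPM in control. The 3 Mt1ko values sat within the control range, with a log2 fold change of 0.02 (SE 0.15, interval -0.32 to 0.35). Scap (chr9:110333288-110384950), the escort of SREBPs to the Golgi, had 54.3, 47.5 and 50.2 CPM in Mt1ko, against 50.6, 64.4 and 43.4 CPM in control. Its Mt1ko samples too lay inside the control range, with a log2 fold change of -0.06 (SE 0.17, interval -0.46 to 0.34).

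Insig1 and Stard4 are themselves SREBP targets. Insig1 (chr5:28071363-28078662), which retains SCAP when sterols are plentiful, had 13.7, 12.8 and 13.4 CPM in Mt1ko, against 14.1, 8.26 and 14.5 CPM in control. The Mt1ko samples were close together and within the control range, with a log2 fold change of 0.12 (SE 0.27, interval -0.52 to 0.75). Stard4 (chr18:33199355-33213862), a carrier of cholesterol between membranes, had 8.02, 11.7 and 7.40 CPM in Mt1ko, against 8.32, 3.68 and 8.03 CPM in control. Mt1ko 10-12 was the highest sample and control 7-9 the lowest, and the other 4 spanned 7.40 to 8.32 CPM. The log2 fold change of Stard4 was 0.44 (SE 0.40, interval -0.49 to 1.37), with an unadjusted p of 0.303 (edgeR quasi-likelihood test). Of the 5 sensing genes, 3 were lowest in control 7-9, and the median log2 fold change was 0.02.

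The fatty acid branch held the highest levels per kilobase of transcript among the members, in Acly and Scd2. Acly (chr11:100476353-100528000), which splits citrate to give cytosolic acetyl-CoA to both branches, had 267.9, 142.4 and 232.8 CPM in Mt1ko, against 257.8, 157.2 and 222.9 CPM in control. Mt1ko 10-12 and control 7-9 formed the low end, and the other 4 samples were at 222.9 CPM or above. The same samples had the lowest neutrophil marker sums, 44.3 CPM in Mt1ko 10-12 and 54.7 CPM in control 7-9, against 133.1 to 227.4 CPM in the other 4. They also had the highest mast cell and basophil sums, 5286 and 830.2 CPM, against 166.5 to 675.5 CPM in the other 4. Control 14-15 had the 675.5 CPM, not far below control 7-9, with 222.9 CPM of Acly. The part of these markers in the level of Acly was not tested. The means were 214 ± 64.8 CPM in Mt1ko and 213 ± 51.1 CPM in control, with a log2 fold change of 0.01 (SE 0.27, interval -0.61 to 0.63). Acaca (chr11:84129672-84401651), the acetyl-CoA carboxylase that commits carbon to fatty acids, had 42.3, 31.2 and 41.6 CPM in Mt1ko, against 44.5, 38.0 and 53.4 CPM in control. It had the smallest p of the fatty acid enzymes, with a log2 fold change of -0.24 (SE 0.19, interval -0.68 to 0.20) and an unadjusted p of 0.240 (edgeR quasi-likelihood test). Fasn (chr11:120805846-120824547), the synthase of palmitate, had 80.3, 52.8 and 55.7 CPM in Mt1ko, against 68.7, 45.4 and 77.2 CPM in control. Its spread within each group exceeded the difference of the means, with a log2 fold change of -0.02 (SE 0.24, interval -0.58 to 0.55).

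The desaturases differed widely in level, and Scd2 exceeded Fads1 by 19.3 to 77.8 times per kilobase of transcript over the 6 samples. Scd2 (chr19:44293674-44306864), a stearoyl-CoA desaturase, had 195.6, 228.7 and 205.0 CPM in Mt1ko, against 195.6, 257.1 and 190.8 CPM in control. Its log2 fold change was -0.03 (SE 0.15, interval -0.39 to 0.33). Scd1, its close paralogue and the main form in liver, had 0 counts in all 17 libraries, which allows up to 0.00546 CPM over the 6 samples together. The submitters' notes name RSEM, but no label or header says how reads that match both paralogues were divided. Fads1, the delta-5 desaturase of polyunsaturated fatty acids, had 2.44, 3.06 and 1.91 CPM in Mt1ko, against 2.63, 2.10 and 6.28 CPM in control. Control 14-15 was the highest, and within it library 15 had 9.49 CPM and library 14 had 3.301 CPM. The log2 fold change of Fads1 was -0.57 (SE 0.59, interval -1.94 to 0.80), and 0.06 without control 14-15.

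Elovl6 and Fads2 were too low to test. Elovl6, which lengthens palmitate, had 1, 23 and 19 counts in Mt1ko 4-6, 10-12 and 16-18, against 0, 3 and 0 counts in control 1-3, 7-9 and 14-15. The 23 counts were all in library 11 and the 19 all in library 18. Fads2, the delta-6 desaturase, had 3, 0 and 2 counts in Mt1ko, against 0, 0 and 10 counts in control, all 10 in library 15. Of the 5 tested fatty acid enzymes, 1 was fitted higher and 4 lower, with a median of -0.03, -0.09 without Mt1ko 10-12 and 0.05 without control 14-15.

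**Figure D4:**
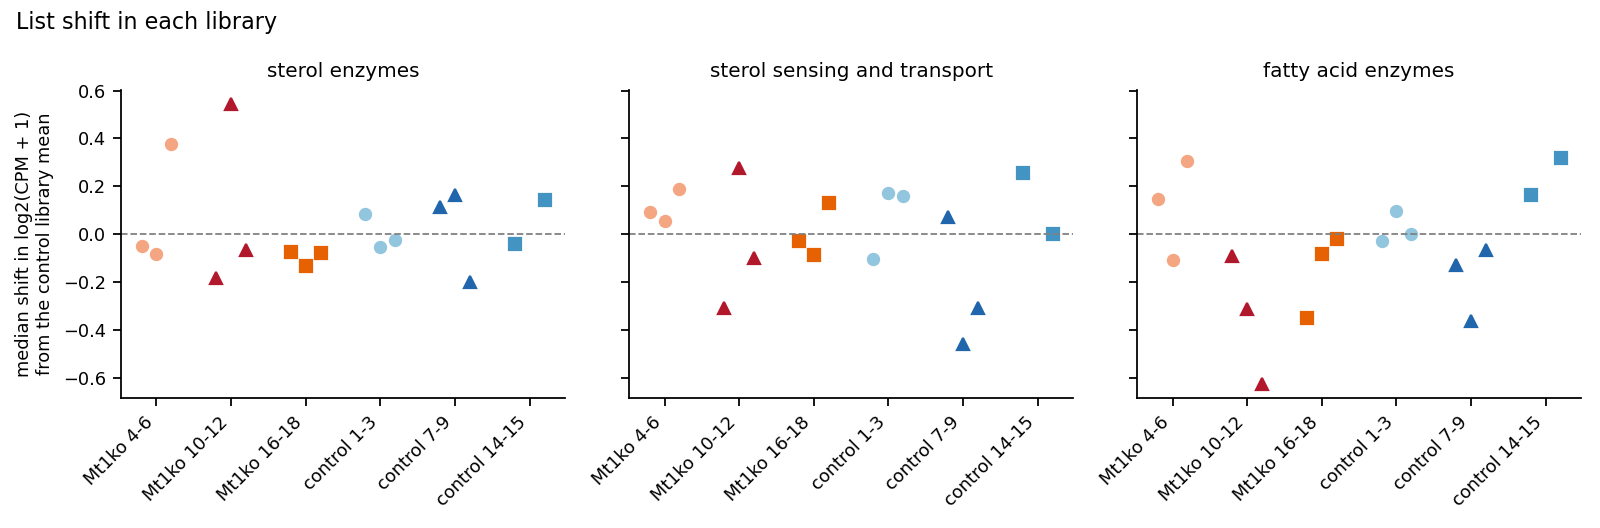
Shift of each list in each library, as the median over its tested members of log2(CPM + 1) less the mean of the 8 control libraries; each point is 1 library, Mt1ko in warm colours and control in blue. Mt1ko and control libraries overlap in all 3 panels; library 11 is the highest for sterol enzymes at 0.54 and library 12 the lowest for fatty acid enzymes at -0.62.

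The sterol enzymes were shifted by 0.05, 0.17 and -0.20 in Mt1ko 4-6, 10-12 and 16-18, against -0.01, 0.02 and -0.00 in control 1-3, 7-9 and 14-15, as medians of log2(CPM + 1) less the control mean. The Mt1ko samples bracketed the controls. The sensing genes were shifted by 0.07, 0.06 and 0.08 in Mt1ko, against 0.11, -0.25 and 0.18 in control, and the fatty acid enzymes by -0.09, -0.23 and -0.11 in Mt1ko, against -0.01, -0.40 and 0.25 in control. Control 7-9 was the lowest sample for both of these lists. Among libraries, sterol enzymes were shifted by 0.54 in library 11, against -0.18 and -0.07 in libraries 10 and 12 of the same sample, and by 0.38 in library 6, where Mt1 was near the control level.

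Levels between genes were compared per kilobase of the longest protein-coding transcript. On this scale Acly had 48.4 ± 14.6 CPM per kb in Mt1ko and 48.0 ± 11.5 CPM per kb in control, and Scd2 had 38.5 ± 3.12 and 39.3 ± 6.78 CPM per kb in Mt1ko and control. The ratio of Scd2 to Acly ran between 0.592 and 1.33 over the 6 samples and was above 1 in Mt1ko 10-12 and control 7-9, so their order was not fixed. Srebf1 (19.8 CPM per kb in Mt1ko, 19.98 in control) was above Srebf2 (16.0 in Mt1ko, 15.8 in control) in all 6 samples, by 1.11 to 1.41 times. Msmo1 (15.8 CPM per kb in Mt1ko, 15.7 in control) was level with Srebf2 within the spread. Enzymes of the same branch differed widely. Acly exceeded Acaca by 8.89 to 13.6 times, and Msmo1 exceeded Cyp51, the demethylase upstream of it, by 9.92 to 14.5 times. Hsd17b7 was the lowest tested member, at 0.628 CPM per kb in Mt1ko and 0.589 in control. The choice of length mattered for Msmo1. Per kilobase of all annotated exons Msmo1 had 5.22 CPM per kb in control, against 11.2 for Srebf2, 8.62 for Ebp and 1.16 for Cyp51.

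Genes around the module were read from 5 further lists, and none of their genes passed the adjusted threshold (edgeR quasi-likelihood test). Of 10 other genes of SREBP processing and sterol sensing, 3 were fitted higher in Mt1ko and 7 lower, with a median of -0.04. Without Mt1ko 10-12, 8 were higher and 2 lower. For 1 of the 10 the groups were apart with Mt1ko higher, against 2.74% of all tested genes. Mbtps2, the site-2 protease that frees SREBPs from the membrane, had 23.3, 26.0 and 23.8 CPM in Mt1ko, against 20.7, 17.7 and 17.3 CPM in control. The groups did not overlap, and its log2 fold change was 0.39 (SE 0.17, unadjusted p = 0.0499, adjusted p = 1.00, edgeR quasi-likelihood test). Mbtps1, the site-1 protease that cuts first, averaged 84.6 ± 17.9 CPM in Mt1ko and 107 ± 17.4 CPM in control, with a log2 fold change of -0.34 (SE 0.20).

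Of 12 other isoprenoid and sterol branch genes, 5 were fitted higher and 7 lower, with a median of -0.05. Dhdds, a subunit of the dolichol-making prenyltransferase, averaged 31.6 ± 3.22 CPM in Mt1ko and 25.3 ± 2.51 CPM in control, with a log2 fold change of 0.32 (SE 0.16). Pggt1b, a subunit of an enzyme that attaches isoprenoid chains to proteins, averaged 30.0 ± 6.39 CPM in Mt1ko and 38.7 ± 2.62 CPM in control, with a log2 fold change of -0.37 (SE 0.19). Of 18 other genes of fatty acid synthesis and elongation, 17 were tested, with 11 higher, 6 lower and a median of 0.18. Hsd17b12, the reductase of the elongation cycle, averaged 63.7 ± 3.68 CPM in Mt1ko and 52.3 ± 5.23 CPM in control, with a log2 fold change of 0.29 (SE 0.13). Slc25a1, the carrier that exports citrate from mitochondria to Acly, averaged 13.4 ± 3.52 CPM in Mt1ko and 8.85 ± 2.35 CPM in control, with a log2 fold change of 0.60 (SE 0.32). The 2 groups were apart, with Mt1ko higher, for 3 of these 17 genes and for 3 of the 12 isoprenoid and sterol branch genes, of which 1 more was apart with Mt1ko lower. Over all tested genes these shares were 2.74% and 4.36%, and the counts were not tested as lists.

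Of 14 LXR targets and genes of sterol outflow and esterification, 8 were fitted higher and 6 lower, with a median of 0.05. For 1 of the 14 the groups were apart with Mt1ko higher, against 2.74% of all tested genes. Npc2, which hands cholesterol out of lysosomes, averaged 149 ± 8.45 CPM in Mt1ko and 129 ± 7.37 CPM in control, with a log2 fold change of 0.21 (SE 0.12). Osbpl5, a lipid transfer protein, had 2.24, 6.44 and 1.63 CPM in Mt1ko, against 2.10, 1.04 and 1.77 CPM in control, and Mt1ko 10-12 was again the highest. Of 16 genes of fatty acid oxidation and lipid droplets, 15 were tested, with 7 higher, 8 lower and a median of -0.02. For 2 of the 15 the groups were apart with Mt1ko lower, against 4.36% of all tested genes. These counts were not tested as lists. Pparg, a nuclear receptor for lipids, had 0.0375, 0 and 0.0210 CPM in Mt1ko, against 0.329, 0.319 and 1.22 CPM in control, and the smallest p of that list (unadjusted p = 0.0206, adjusted p = 1.00, edgeR quasi-likelihood test). Its Mt1ko values lie at the limit of detection, since 3 counts are worth 0.0281 to 0.0445 CPM in these samples. Pparg passed the filter on low counts through its control samples alone, and it is among the 2 genes apart with Mt1ko lower. Its p and direction therefore give no support for a difference. Etfdh, which passes electrons from fatty acid oxidation to the respiratory chain, averaged 30.2 ± 5.77 CPM in Mt1ko and 23.2 ± 2.32 CPM in control, with a log2 fold change of 0.38 (SE 0.19).

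Some members share annotated exon bases with other genes, and no label or header says whether the counting used strand. This held for 11 members, and for 5 of them over more than 10% of their exon bases: Fdft1 with Ctsb, Fdps with Gm43738, Hmgcs1 with Gm48342, Scap with 5830462I19Rik and Tm7sf2 with Vps51. Ctsb lies on the other strand and held 1103175 counts over all libraries, against 10144 for Fdft1, so the level of Fdft1 is uncertain. Vps51 lies on the same strand as Tm7sf2, so strand could not separate them in the bases they share. Vps51 held 16577 counts, against 2226 for Tm7sf2, so the level of Tm7sf2 is uncertain too.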

How the data were processed

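Total RNA was isolated from bone marrow, treated with DNase and made into stranded libraries with a low-input kit, per the labels' protocols. Trimmomatic 0.35 and RSEM 1.3.3 are named with the builds GRCm38 and mm10, which are the same assembly, per the submitters' processing notes. No label or header names the aligner, the strand setting or how whole numbers were reached. For each gene the authors deposited raw whole-number counts in 17 libraries and in 6 sums of them, and each sum equalled its libraries in every gene. Library 13 of the numbering 1 to 18 was not analysed here.

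The 3 Mt1ko and 3 control sums were compared with edgeR 4.0.16 (R 4.3.3) using filterByExpr, TMM scaling, group as the only term and the quasi-likelihood F test, with Benjamini-Hochberg adjustment over all 16666 genes tested and a threshold of 0.05. The 17 libraries were an alternative, since the labels call each one a technical replicate. CPM are TMM-scaled, SEs are the log2 fold change over the root of F, and list shifts use a pseudocount of 1 CPM. Intervals and the limit of 3 counts take in no error beyond counting and the spread of these samples. Coordinates, exons and transcript lengths are from GENCODE vM21 (GRCm38), which held all 31 members. The test was checked on simulated counts.

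The members, lists, tests and alternatives were chosen with earlier results of these data known. Full values were given for Mt1 and, in each of the 3 member groups, for the 4 tested members with the smallest p and the 2 with the highest mean CPM; in each of the 5 further lists, the 2 genes with the smallest p were named. Acat2, Mvk, Mvd, Sqle, Dhcr7, Ebp, Elovl6, Fads2 and Scd1 are described outside that rule to account for their steps, after their values were seen. Alternatives were RLE scaling, no count filter, at least 1 CPM throughout a group, the 17 libraries singly, with the second index as a covariate or with the summed sample as a random effect (limma 3.58.1), DESeq2 1.42.0, limma-voom, library 6 or the mitochondrial genome left out, a threshold of 0.10, a pseudocount of 0.1 CPM, and each sum left out in turn.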

Additional observations from a re-analysis of the deposited data

Results flagged for a closer look

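Of 60 gene and group combinations with a count, examined over the 9 Mt1ko or the 8 control libraries, 13 had a library far from all others by Dixon's test, in 11 genes. The test flags about 1 in 20 groups of independent, normally distributed values. Libraries of 1 sum share their source and CPM need not be normal, so that rate is no measure for these flags. Of the 13, 7 were in libraries 10 to 12, and 3 of these in library 11. Library 11 was high for Mvk at 15.8 CPM (next 7.54), for Fdps at 58.5 CPM (next 15.2) and for Hsd17b7 at 11.0 CPM (next 3.44). Library 12 was high for Sqle at 45.6 CPM (next 19.8) and for Msmo1 at 65.6 CPM (next 37.7), and low for Sc5d at 5.10 CPM (next 16.8). Library 10 was low for Scap at 31.5 CPM (next 46.8).

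The other 6 were control libraries. Library 8 was high for Mvk at 13.6 CPM (next 4.54). Library 9 was high for Tm7sf2 at 13.8 CPM (next 4.39) and low for Msmo1 at 17.4 CPM (next 29.9). Library 15 was high for Fads1 at 9.49 CPM (next 3.59). Single libraries held all control counts of Fads2, at 0.307 CPM in library 15, and of Elovl6, at 0.0774 CPM in library 7. The other control libraries had 0 counts of each, which alone fixes such a flag.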

How the results depend on the processing

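No member was called under any alternative, and the smallest adjusted p of a member was 0.981. An unadjusted p under 0.05 was reached by Pmvk with the index covariate (-2.10, p 0.0403) and with the random effect (-2.39, p 0.0264), and by Lss without Mt1ko 16-18 (1.36, p 0.0326). The fits of the 17 libraries singly and with the index covariate took technical replicates as independent, so their p-values do not rest on the 6 sums. The number of genes called was 0 in the main edgeR fit of the 6 sums. It was 1, Mt1, in DESeq2 of the same sums (adjusted p 8.03e-05) and in edgeR with library 6 left out (0.0102). It was also 1, Mt1, in edgeR with the 17 libraries singly (0.0145) and in limma with the sum as a random effect (0.000945). The sterol enzyme median was -0.16 with the random effect, where the median of all genes was -0.09, and ran from -0.068 to 0.14 when each sum was left out. Outside leave-outs, 259 of 280 member values kept their sign. Those that reversed had log2 fold changes of -0.017 (Sc5d) with libraries singly; -0.052 (Sqle), -0.072 (Sc5d) and 0.027 (Fasn) with the index covariate; -0.22 (Fdps), -0.10 (Fdft1), -0.30 (Sqle), -0.083 (Msmo1), -1.27 (Hsd17b7), -0.0036 (Sc5d) and 0.028 (Fasn) with the random effect; -0.048 (Fdft1), -0.13 (Sqle), -0.0015 (Msmo1), -0.017 (Hsd17b7) and 0.020 (Fasn) in limma-voom; and -0.0049 (Fdft1), -0.14 (Cyp51), -0.021 (Hsd17b7), -0.024 (Sc5d) and -0.0062 (Srebf2) without library 6.

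When each sum was left out, 131 of 168 member values kept their sign, and 22 genes reversed at least once. Their log2 fold changes ran from -0.71 to 0.37 for Acat2, -0.18 to 0.24 for Acly, -0.070 to 0.25 for Cyp51, -0.85 to 0.061 for Fads1, -0.24 to 0.14 for Fasn, -0.27 to 0.20 for Fdft1, -0.12 to 0.81 for Fdps, -0.14 to 0.30 for Hmgcs1, -0.26 to 0.27 for Hsd17b7, -0.098 to 0.25 for Insig1, -0.042 to 1.36 for Lss, -0.051 to 0.081 for Msmo1, -0.73 to 0.18 for Mvd, -0.12 to 1.21 for Mvk, -0.40 to 0.092 for Nsdhl, -0.017 to 0.10 for Sc5d, -0.18 to 0.11 for Scap, -0.11 to 0.12 for Scd2, -0.77 to 0.71 for Sqle, -0.062 to 0.048 for Srebf1, -0.096 to 0.11 for Srebf2 and -0.63 to 0.30 for Tm7sf2. The causes were not tested. No paired analysis was possible because the titles number each library once, so the groups share no replicate number. Scd1, Elovl6 and Fads2 had too few counts to be tested.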

Other observations

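Acss2, which makes acetyl-CoA from acetate, lies outside the members and was chosen after its values were seen. It had 1.67, 13.02 and 2.40 CPM in Mt1ko 4-6, 10-12 and 16-18, against 1.51, 3.07 and 3.80 CPM in control 1-3, 7-9 and 14-15. As for Lss, Mt1ko 10-12 was the highest sample, and the other 5 overlapped between the groups. Its log2 fold change was 1.03 (SE 0.83), with an adjusted p of 1.00 (edgeR quasi-likelihood test).

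Genes that handle cholesterol after uptake were measured too. Soat1, which esterifies cholesterol for storage, had 308.8, 300.3 and 279.5 CPM in Mt1ko, against 291.1, 271.3 and 266.3 CPM in control. Npc1, the lysosomal cholesterol exporter, had 281.6, 342.5 and 270.6 CPM in Mt1ko, against 257.3, 331.4 and 230.5 CPM in control, and Lipa, the lysosomal lipase that frees cholesterol from its esters, had 209.7, 338.6 and 238.2 CPM in Mt1ko, against 209.2, 315.4 and 221.9 CPM in control. For Npc1 and Lipa the highest sample of each group was Mt1ko 10-12 and control 7-9, the samples in which Acly was lowest. Neutrophil marker sums were lowest there, at 44.3 CPM in Mt1ko 10-12 and 54.7 CPM in control 7-9, against 133.1 to 227.4 CPM in the other 4 samples. Mast cell and basophil sums were highest there, at 5286 and 830.2 CPM, against 166.5 to 675.5 CPM in the other 4. Control 14-15 had the 675.5 CPM, with 230.5 CPM of Npc1 and 221.9 CPM of Lipa. The part of these markers in these levels was not tested.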
